A study of Mus musculus with 6 samples.

Results

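Kinesins are motor proteins that walk along microtubules, or shorten them, using ATP. The 40 genes described here are the rows of a mouse mammary tumour series whose symbol is Kif followed by a digit, out of 24421 symbols in all. By textbook role they comprise 14 kinesins of the spindle and of cytokinesis, called mitotic below, 17 transport kinesins, 6 ciliary kinesins, and 3 rows that encode no motor. Those 3 are Kif1bp, a partner protein of the Kif1 motors, the antisense transcript Kif16bos and the pseudogene Kif4-ps. The roles are broad: Kif26a, which lacks ATP-driven movement, is counted as a transport kinesin, and Kif24, which acts at the centriole, as a mitotic one.

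The libraries were made from total RNA of 3 mammary glands, labelled FVB/NJ; Tg(LINK-A), and 3 mammary tumours, labelled FVB/NJ; MMTV-Tg(LINK-A). All donors were female FVB/NJ mice of 5 months that carried a LINK-A transgene, LINK-A being a human lncRNA described in breast cancer. MMTV, the long terminal repeat promoter of a mouse mammary tumour virus with activity mainly in mammary epithelium, is named only for the tumour donors, so that a difference of genotype cannot be told apart from a difference of tissue. Nothing says that the libraries of a group came from separate animals, and p-values then measure only the spread between these samples, which may be technical.

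Mitotic kinesins are made when cells divide: they separate the spindle poles, shorten microtubules at kinetochores, push chromosomes and build the midzone at which the cell is cut. Transport kinesins such as kinesin-1, kinesin-2 and kinesin-3 carry vesicles, mitochondria and endosomes towards microtubule plus ends, and several of them are best known from neurons. In the mammary gland, dividing cells are a small part of the epithelium outside pregnancy, and fat cells make up most of the tissue.

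Levels are in FPKM, a fragment count corrected for the length of the transcript and the depth of the library, which allows levels to be compared between genes. The sums per library lay between 486080 and 582996 FPKM, and total read counts were not given. Markers of both tissues were present: 8 luminal epithelium genes summed to 975 to 1039 FPKM in the glands and 2765 to 2994 in the tumours, and 8 adipocyte genes to 6463 to 7820 and 47.4 to 240 FPKM. The glands differed among themselves. The 8 lymph node and B cell genes summed to 166 and 170 FPKM in glands 1 and 3 and to 29.7 in gland 2, against 1.99 to 45.8 in the tumours, while 6 skeletal muscle genes summed to 11337 FPKM in gland 2 and to 13.2 and 1015 in glands 1 and 3. In bulk tissue, fewer cells of a type and less RNA per cell cannot be told apart.

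Mitotic kinesins rose in the tumours and transport kinesins went both ways. Of the 40 genes, 26 averaged 1 FPKM or more across all 6 libraries and were tested on log2(FPKM + 1), the scale of every log2 difference below, which understates changes of low genes. Of these 26, 15 were higher in the tumours, 4 were lower and 7 did not pass an adjusted p of 0.05 in limma, where 45.1% of all 13364 tested genes passed, 21.9% higher and 23.1% lower. By role, 11 of 13 tested mitotic kinesins were higher and 2 did not pass, with a median log2 difference of 1.24. Of 12 tested transport kinesins 4 were higher and 4 lower, with a median of -0.05. The median of all tested genes was 0.01. Of the 11, Kif14 and Kif24 met the minimum through the tumours, with gland means of 0.822 and 0.710 FPKM. Of the 4 lower, Kif26a met it through the glands. With no minimum, 11 of 13 mitotic kinesins were higher, and of 16 transport kinesins 5 were higher and 5 lower. Of all 18174 genes in that fit, 16.3% were higher and 20.9% lower. None of the 6 ciliary kinesins reached the minimum level. In a fit without glands 1 and 3, the glands rich in lymph node genes, which left 1 gland that is assumed to vary as the tumours do, 8 mitotic kinesins were still called higher, and 1 transport kinesin was called, lower. In that fit 15.4% of all genes passed, 5.91% higher and 9.44% lower. The transport kinesin called in that fit was Kif26a, which lacks ATP-driven movement (log2 difference -1.13). With all 6 libraries, the groups did not overlap for 16 kinesin genes higher and 4 lower in the tumours. Of all tested genes 58.2% did not overlap, 29.3% higher and 29.0% lower.

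**Figure D1:**
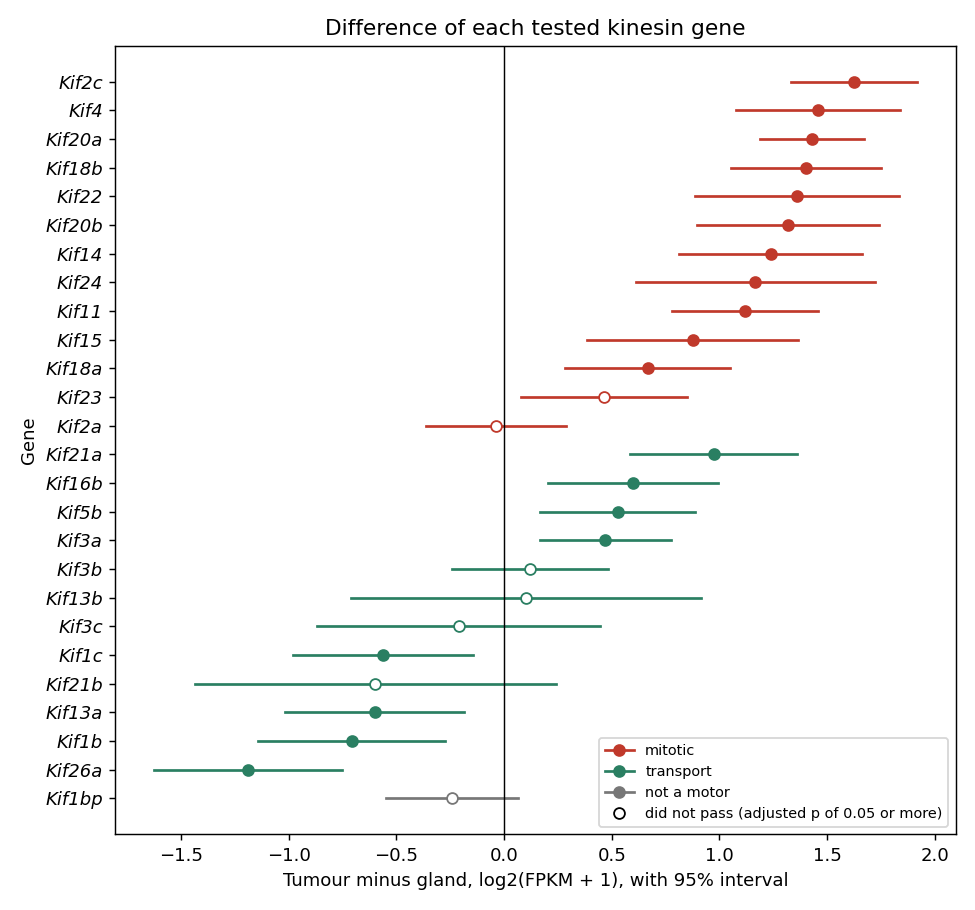
Difference of each of the 26 tested kinesin genes, tumour minus gland on the log2(FPKM + 1) scale, with 95% intervals; filled points passed an adjusted p of 0.05 and open points did not. Mitotic kinesins, apart from Kif2a, lie to the right of 0, and transport kinesins lie on both sides.

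Summed over the 14 mitotic kinesins, the level was 58.8, 46.8 and 54.3 FPKM in glands 1 to 3 and 116, 135 and 126 FPKM in tumours 1 to 3. The mitotic kinesins thus held 22.9% to 28.4% of the summed level of the 37 motor genes taken by the symbol rule in the glands and 43.4% to 52.2% in the tumours. The transport kinesins summed to 145, 155 and 140 FPKM in the glands and to 105, 138 and 163 FPKM in the tumours. These groups overlapped, with tumour 1 the lowest and tumour 3 the highest of all 6 libraries. The ciliary kinesins gave at most 3.01 FPKM in any library.

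**Figure D2:**
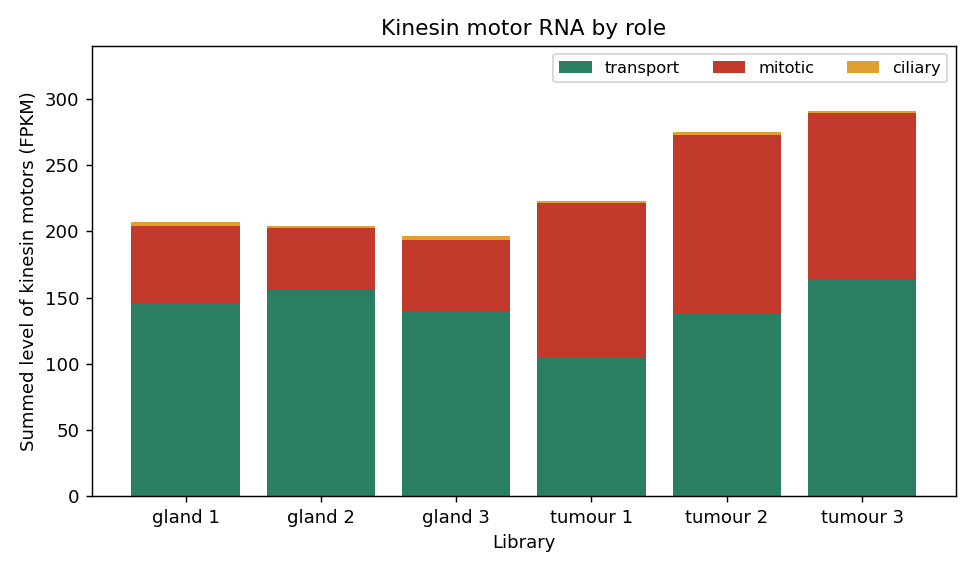
Summed level of the kinesin motor genes in each library in FPKM, stacked by role. The mitotic part is larger in each tumour (116 to 135 FPKM) than in each gland (46.8 to 58.8), and the ciliary part is barely visible.

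The motors that set up the spindle were among the genes that rose. Kif11 (chr19:37376403-37421859, mm10), the kinesin-5 that slides antiparallel microtubules apart to make a bipolar spindle, measured 7.80, 6.04 and 6.68 FPKM in the glands, numbered 1 to 3, and 13.8, 16.7 and 17.7 FPKM in the tumours. The groups did not overlap, and the log2 difference of Kif11 was 1.12 (SE 0.14, adjusted p = 0.00103). Kif15, the kinesin-12 that can stand in for Kif11, spanned 1.87 to 3.02 FPKM in the glands and 4.48 to 6.95 in the tumours (0.88, SE 0.21, adjusted p = 0.0130). With gland 2 as the only gland Kif15 no longer passed (1.14; adjusted p 0.00224 to 0.0891 among the 13 alternatives).

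The microtubule depolymerases did not move as 1 group. Kif2c, which removes faulty attachments at kinetochores, had the largest log2 difference of the 26 tested kinesin genes with a pseudocount of 1. With a pseudocount of 0.1 Kif14 (1.91) and Kif24 (1.89) lay above Kif2c (1.86). Its levels were 3.75, 3.31 and 3.10 FPKM in the glands and 13.3, 12.8 and 11.5 FPKM in the tumours (1.63, SE 0.12, adjusted p = 0.000132). Kif2a, which acts at spindle poles and also in neurons that no longer divide, measured 9.58, 9.53 and 11.1 FPKM in the glands and 9.50, 8.59 and 11.3 FPKM in the tumours. These groups overlapped, and the log2 difference of Kif2a was -0.04 (95% interval -0.36 to 0.29) and turned to 0.06 under quantile normalization. Kif2a shares 1229 exonic bases with Dimt1 on the other strand, and the sources used here do not say whether counting used strand. Kif2b was listed at 0 in all 6 libraries. Kif24, a depolymerase of the centriole that holds back cilium formation, rose from 0.893, 0.436 and 0.801 FPKM to 2.81, 3.86 and 1.997 FPKM (1.17, SE 0.23, adjusted p = 0.00686). With gland 2 as the only gland its call was lost (1.41; adjusted p 0.00126 to 0.0713 among the 13 alternatives).

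Motors at plus ends and on chromosome arms rose too. Kif18b, which trims astral microtubules, measured 2.96, 2.72 and 3.13 FPKM in the glands and 8.06, 9.27 and 11.0 FPKM in the tumours (1.40, SE 0.15, adjusted p = 0.000457). Its relative Kif18a, which damps the movements of chromosomes at the metaphase plate, rose from 1.88, 2.50 and 2.78 FPKM to 4.14, 4.83 and 4.07 FPKM (0.67, SE 0.16, adjusted p = 0.0147). Kif18a no longer passed without gland 1 (adjusted p = 0.0551), without tumour 2 (adjusted p = 0.0569) or with gland 2 as the only gland (adjusted p 0.00172 to 0.137 among the 13 alternatives). Of the chromokinesins, Kif22, which pushes chromosome arms outward, rose from 8.99, 5.46 and 6.63 FPKM to 16.6, 23.4 and 18.4 FPKM (1.36, SE 0.20, adjusted p = 0.00185). Kif4, which binds chromosomes and then the midzone, rose from 2.90, 1.92 and 2.11 FPKM to 7.48, 8.90 and 7.75 FPKM (1.46, SE 0.16, adjusted p = 0.000549). Kif4 shares 832 exonic bases with Pdzd11 on the other strand, so that its level is uncertain. Pdzd11 stood at 26.9 to 38.0 FPKM over the 6 libraries, and the pseudogene Kif4-ps was listed at 0 throughout.

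At the midzone and the midbody, where daughter cells part, Kif20a had the smallest spread among tumours relative to its mean of the tested kinesin genes. It brings the Aurora B complex to the midzone, and it measured 7.03, 6.30 and 6.54 FPKM in the glands and 19.4, 20.05 and 19.2 FPKM in the tumours (1.43, SE 0.10, adjusted p = 0.000107). It shares 1271 exonic bases with Cdc23 on the other strand, so that its level is uncertain. Cdc23 lay between 11.6 and 14.4 FPKM in all libraries. Kif20b, a motor of late cytokinesis, rose by 1.32 (SE 0.18, adjusted p = 0.00128). Kif14, the partner of citron kinase, spanned 0.552 to 0.982 FPKM in the glands and 2.91 to 3.73 in the tumours (1.24, SE 0.18, adjusted p = 0.00172).

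Kif23, the motor of centralspindlin, did not pass the threshold. It measured 6.69, 4.46 and 5.24 FPKM in the glands and 7.44, 8.71 and 7.39 FPKM in the tumours. The groups did not overlap, but the log2 difference of 0.46 (SE 0.16) had an adjusted p of 0.0534. It passed without gland 1 (adjusted p = 0.0372), under quantile normalization (adjusted p = 0.0121) and with median-of-ratios scaling (adjusted p = 0.0402; adjusted p 0.0121 to 0.160 among the 13 alternatives). Its partner in centralspindlin, Racgap1, rose from a mean of 9.55 ± 1.67 to 29.4 ± 1.57 FPKM (SD, n = 3 each; log2 difference 1.54, SE 0.14). The level of Kif23 was 60.3%, 57.3% and 53.5% of that of Racgap1 in glands 1 to 3 and 26.4%, 27.9% and 25.6% in tumours 1 to 3, a ratio chosen after the values were seen.

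**Figure D3:**
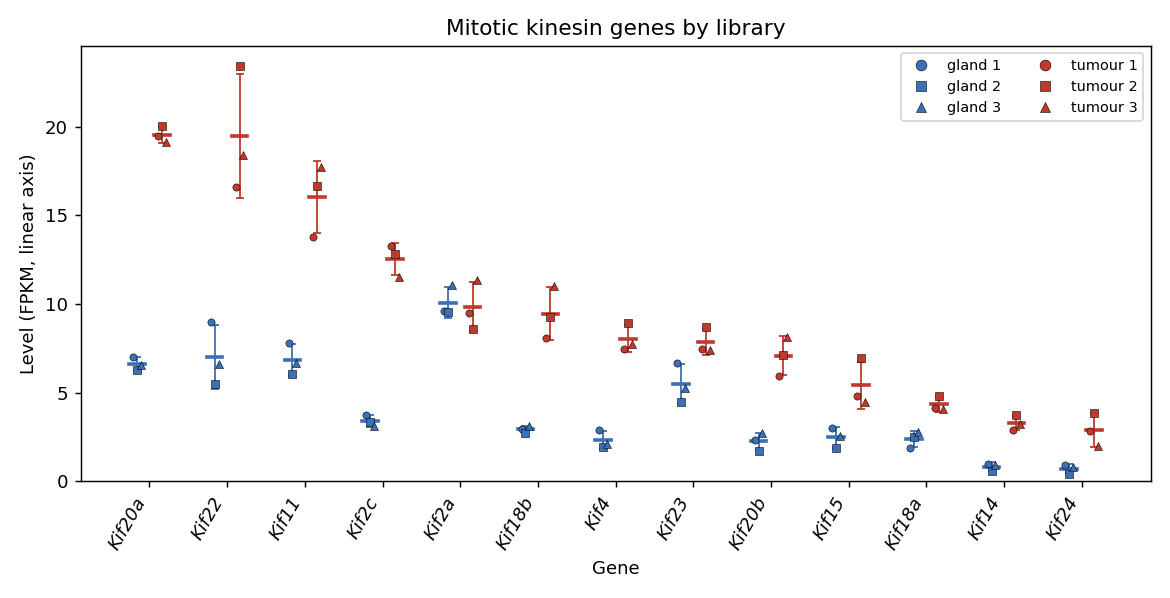
Levels of the 13 tested mitotic kinesins in FPKM on a linear axis; each symbol is 1 library, lines are means and error bars are SDs of 3 libraries. The tumour values lie above the gland values for 12 genes, by little for Kif23, and overlap them for Kif2a.

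Among the glands, gland 2 had the lowest value for 11 of the 13 tested mitotic kinesins, against 55.2% of all tested genes. With median-of-ratios scaling it was the lowest for 9, against 38.7% of all genes. This was the gland with the lowest sum of lymph node genes and the highest of muscle genes, and their part in the mitotic levels was not tested. Against gland 2 alone the log2 difference was 1.27 for Kif11, 1.65 for Kif2c and 1.49 for Kif20a.

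Other proteins of the spindle moved with the mitotic kinesins. Of 9 midzone and cytokinesis partners, 8 were higher (median log2 difference 1.43), and of 12 genes of spindle assembly and mitosis, which include Cenpe, Kifc1, Mki67 and Top2a, 11 were higher (median 1.29), beside 21.9% of all tested genes; in each list 1 gene did not pass. Birc5, the survivin subunit of the Aurora B complex, rose by 2.09 (SE 0.16), Prc1, the bundler that recruits Kif4, by 1.52 (SE 0.12), and Ect2, the exchange factor for RhoA, by 1.43 (SE 0.14). Hmmr rose by 1.92 (SE 0.14), Tpx2, which recruits Kif15 to the spindle, by 1.78 (SE 0.11), and the mitotic kinases Plk1 and Aurka by 2.08 and 2.01. Cit, the citron kinase gene (0.47, adjusted p = 0.289), and Numa1, the dynein anchor at spindle poles (-0.14, adjusted p = 0.527), were those that did not pass. Of the 11, Cenpe and Kifc1 are motors that the symbol rule does not take: Cenpe, at kinetochores, rose by 1.11 (SE 0.21) and the minus-end motor Kifc1 by 1.37 (SE 0.19).

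Set against Mki67, the gene of the proliferation marker Ki-67, the kinesins did not keep 1 proportion. Mki67 measured 15.3, 10.8 and 13.3 FPKM in the glands against 24.9, 35.5 and 35.1 FPKM in the tumours. As a percentage of Mki67, 4 of the 13 tested mitotic kinesins were higher in all tumours than in all glands, 2 were lower and 7 overlapped. The share of all tested genes for this ratio was not computed, so these counts have no background beside them. Mki67 itself rose by 1.21 (SE 0.18), so that a gene of unchanged level, such as Kif2a, lies lower against it. Kif11 overlapped, at 50.3% to 55.8% of the Mki67 level in the glands and 46.9% to 55.4% in the tumours. Kif2c lay at 23.3% to 30.6% in the glands and 32.8% to 53.2% in the tumours, and Kif14, Kif18b and Kif4 were the others that lay higher. Kif23 lay at 39.4% to 43.7% in the glands and 21.1% to 29.9% in the tumours, and Kif2a at 62.6% to 88.0% and 24.2% to 38.2%.

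Because the mitotic kinesins rose together, the bases before their starts were searched for 2 letter patterns known from genes of late cell cycle: the cell cycle homology region, TTTGAA, and the CCAAT box, both on either strand. RefSeq windows of build GRCm38.p6 were at hand for 32 of the 40 genes and covered 250 bases before each RefSeq start, which need not be the start of the GENCODE gene. For Kif2c, Kif14 and Kif4 the RefSeq start lay 3867, 1505 and 328 bases inside the GENCODE gene. Of the 10 matched mitotic kinesins that rose, 5 held TTTGAA, 6 held CCAAT, 3 held both and 2 held neither. From those inner starts Kif2c was counted under TTTGAA, Kif4 under CCAAT and Kif14 under both. The 10 were picked by their calls in these data, and the transport kinesins below by the minimum level alone. Of the tested mitotic kinesins that did not pass, Kif23 held CCAAT alone and Kif2a held neither. Of the 27025 genes in the table, 18.3% held TTTGAA at any of their starts, 37.5% held CCAAT and 6.45% held both. Of the 9 matched transport kinesins that were tested, 0 held TTTGAA and 3 held CCAAT. That 0 depends on the minimum level, which has no bearing on the letters. Under the minimum, Kif26b held both patterns and Kif1a held TTTGAA, while Kif12 and Kif5c held neither. The match of Kif1a lay before a start 19471 bases inside the GENCODE gene. Over all 32 matched kinesin genes, 8 held TTTGAA, 15 held CCAAT and 5 held both. A match is a description of letters and not a site, and a window without a match says nothing of the factor.

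The 150 bases directly before the RefSeq start are shown for 4 genes, with matches in capitals: Kif11 (chr19:37376232-37376381, + strand), which holds both patterns, and Kif18b (chr11:102925125-102925274, - strand), which holds CCAAT at 2 places, beside the transport kinesins Kif26a (chr12:112146058-112146207, + strand) and Kif1c (chr11:70700398-70700547, + strand), which fell and hold neither. All are written 5′ to 3′ on the strand of the gene, and none overlaps an annotated exon of GENCODE M21.
Kif11: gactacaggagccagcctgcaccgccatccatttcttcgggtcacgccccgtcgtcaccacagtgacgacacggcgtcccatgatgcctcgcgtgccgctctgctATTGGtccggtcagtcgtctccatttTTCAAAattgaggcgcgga
Kif18b: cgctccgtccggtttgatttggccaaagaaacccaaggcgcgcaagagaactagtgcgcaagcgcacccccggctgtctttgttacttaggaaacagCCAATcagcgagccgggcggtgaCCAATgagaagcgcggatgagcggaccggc
Kif26a: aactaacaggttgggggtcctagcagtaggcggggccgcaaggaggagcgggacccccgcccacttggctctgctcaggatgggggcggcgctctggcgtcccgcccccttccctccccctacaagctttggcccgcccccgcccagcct
Kif1c: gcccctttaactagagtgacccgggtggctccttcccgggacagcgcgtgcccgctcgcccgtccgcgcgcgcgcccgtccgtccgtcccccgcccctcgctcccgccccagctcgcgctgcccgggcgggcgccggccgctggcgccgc
In Kif11, whose RefSeq start lies 21 bases before the GENCODE gene, the CCAAT box, read on the opposite strand as ATTGG, begins 45 bases before the RefSeq start, and TTTGAA, read as TTCAAA, begins 19 bases before it. Kif22, not printed, has the same pair nearest its start, at 54 and 17 bases, and the nearest TTTGAA of Kif15 is at 19 bases. In Kif18b the CCAAT boxes begin 53 and 30 bases before the start.

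Transport kinesins included the gene with the highest level. Kif1c, a kinesin-3 that carries integrins and Golgi vesicles, ranked 1 in both groups, with 51.1, 58.0 and 47.0 FPKM in the glands and 27.1, 36.8 and 42.3 FPKM in the tumours. It fell by 0.56 on the log2 scale (SE 0.18, adjusted p = 0.0380). The call was lost in 8 of 13 alternatives, which include leaving out any single library other than tumour 3 (adjusted p 0.0131 to 0.188 among the 13 alternatives). Kif1b, a carrier of mitochondria and synaptic vesicle precursors, measured 21.8, 30.9 and 21.7 FPKM in the glands and 12.0, 15.8 and 16.4 FPKM in the tumours (-0.71, SE 0.18, adjusted p = 0.0188). It no longer passed with gland 2 as the only gland (adjusted p 0.0156 to 0.0704 among the 13 alternatives). Both genes were highest in gland 2, the gland with the highest muscle markers, whose part in the difference was not tested; without gland 2 the log2 difference of Kif1b was -0.55 (adjusted p = 0.0457).

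The kinesin-3 genes of the endosome differed. Kif13a, which carries recycling endosomes, fell from 7.51, 8.57 and 7.18 FPKM to 3.91, 4.39 and 6.21 FPKM (-0.60, SE 0.18, adjusted p = 0.0289), a call lost in 8 of 13 alternatives, among them each single library other than tumour 3 (adjusted p 0.00467 to 0.193 among the 13 alternatives). Its close relative Kif13b measured 6.97, 5.24 and 5.47 FPKM in the glands and 3.45, 6.52 and 10.9 FPKM in the tumours. The tumours lay on both sides of the glands, and the log2 difference of 0.10 had a 95% interval of -0.71 to 0.91 and was -0.24 without tumour 3. Kif16b, the motor of early endosomes, rose from 5.92, 6.90 and 5.68 FPKM to 7.95, 9.95 and 11.9 FPKM (0.60, SE 0.17, adjusted p = 0.0240). Its call was lost in 6 of 13 alternatives, among them leaving out gland 1, gland 3 or tumour 2 (adjusted p 0.00783 to 0.337 among the 13 alternatives). Kif1a, the axonal kinesin-3, was under the minimum level, at 0.526 to 0.735 FPKM in the glands and 0.495 to 1.26 in the tumours, with overlap.

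Within kinesin-1, the conventional motor, the ubiquitous heavy chain was higher and a neuronal one lower. Kif5b, the ubiquitous form, measured 19.9, 21.2 and 21.4 FPKM in the glands and 24.9, 30.8 and 37.0 FPKM in the tumours (0.53, SE 0.15, adjusted p = 0.0276). The call of Kif5b was lost in 6 of 13 alternatives, among them leaving out any gland or tumour 2 (adjusted p 0.00755 to 0.278 among the 13 alternatives). Kif5c measured 1.69, 1.09 and 1.53 FPKM in the glands and 0.137, 0.262 and 0.203 FPKM in the tumours, and Kif5a 0.617, 0.714 and 0.817 FPKM against 0.217, 0.560 and 0.298 FPKM. Both were under the minimum mean and so not part of the test. With no minimum, where 37.2% of 18174 genes passed, 16.3% higher and 20.9% lower, Kif5c was lower (-1.02, SE 0.13, adjusted p = 0.00159) and Kif5a did not pass (adjusted p = 0.0671). Kif5b made up 89.6% to 92.2% of the kinesin-1 heavy chain level in the glands and 97.4% to 98.7% in the tumours. The 8 neuron genes summed to 3.40 to 5.67 FPKM in the glands and 0.842 to 1.56 in the tumours, with Snap25 and Nefm at 0 in all 6 libraries. The 10 Schwann cell and nerve genes summed to 163 to 206 and 149 to 258 FPKM, and of the 8 tested 5 were lower and 3 higher. The part of nerve in the levels of Kif5a and Kif5c was not tested.

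Kinesin-2 works as a trimer of Kif3a, then Kif3b or Kif3c, and an adaptor, and it also drives transport inside cilia. Kif3a rose from 5.73, 5.39 and 5.45 FPKM to 7.15, 7.96 and 9.12 FPKM (0.47, SE 0.13, adjusted p = 0.0225), a call lost in 7 of 13 alternatives, among them leaving out any gland or tumour 2 (adjusted p 0.00280 to 0.217 among the 13 alternatives). Kif3b overlapped between the groups, at 5.53 to 7.46 FPKM and 6.20 to 8.01 FPKM (0.12, 95% interval -0.24 to 0.48). The ratio of Kif3a to Kif3b was 0.731 to 0.976 in the glands and 1.10 to 1.15 in the tumours. Kif3c measured 2.51, 2.40 and 2.42 FPKM in the glands and 1.32, 1.48 and 3.60 FPKM in the tumours, so that tumour 3 lay above the glands and tumours 1 and 2 below them. Its log2 difference of -0.21 did not pass (adjusted p = 0.569; adjusted p 0.0322 to 0.944 among the 13 alternatives). It was -0.52 without tumour 3 (adjusted p = 0.0322) and turned to 0.22 under quantile normalization. Kif3c shares 2617 exonic bases with 1110002L01Rik on the other strand, so that its level is uncertain.

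Kif21a and Kif21b both pause microtubule growth. Kif21a measured 5.27, 4.56 and 4.43 FPKM in the glands and 8.30, 10.5 and 12.4 FPKM in the tumours (0.97, SE 0.16, adjusted p = 0.00323). This was the largest rise among the tested transport kinesins, and Kif21a no longer passed with gland 2 as the only gland (adjusted p 0.000808 to 0.0962 among the 13 alternatives). Kif21b, known from neurons and lymphocytes, measured 6.69, 2.42 and 6.51 FPKM in glands 1 to 3 and 1.89, 3.44 and 3.45 FPKM in the tumours. Gland 2 lay within the tumour range and glands 1 and 3 above it, and the lymph node and B cell genes summed to 166, 29.7 and 170 FPKM in the same glands. The log2 difference of Kif21b was -0.60 (adjusted p = 0.208; adjusted p 0.0231 to 0.767 among the 13 alternatives), -0.98 without gland 2 (adjusted p = 0.0231) and 0.17 with gland 2 as the only gland. The part of lymphocytes in its level was not tested.

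Kif26a, an atypical kinesin without ATP-driven movement that binds signalling proteins, had the largest fall of the tested kinesin genes. Kif5c and Kif7, under the minimum mean, were outside that ranking, at -1.02 and -1.07 with no minimum. Kif26a met the minimum through the glands, with a mean of 1.06 FPKM over the 6 libraries and 0.255 FPKM in the tumours. It measured 2.16, 1.73 and 1.70 FPKM in the glands and 0.152, 0.364 and 0.247 FPKM in the tumours (-1.19, SE 0.18, adjusted p = 0.00227), and it passed in all 13 alternatives. On the FPKM scale its tumour mean was 0.137 times its gland mean. Its relative Kif26b, under the minimum level, measured 0, 0.0439 and 0.0501 FPKM in the glands and 0.302, 0.451 and 0.253 FPKM in the tumours. With no minimum, Kif26b was higher (0.37, SE 0.08, adjusted p = 0.0115). Kif26b shares 909 exonic bases with Gm16564 on the other strand, so that its level is uncertain. Kif12 was listed at 0 in all libraries. Kif1bp, the partner protein, overlapped at 16.4 to 18.0 FPKM and 12.5 to 16.6 FPKM (-0.24, 95% interval -0.55 to 0.07) and passed in 1 of 13 alternatives, without tumour 3 (adjusted p = 0.0355; adjusted p 0.0355 to 0.597 among the 13 alternatives). Kif16bos was above 0 in gland 2, at 0.652 FPKM, and listed at 0 in the other libraries.

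**Figure D4:**
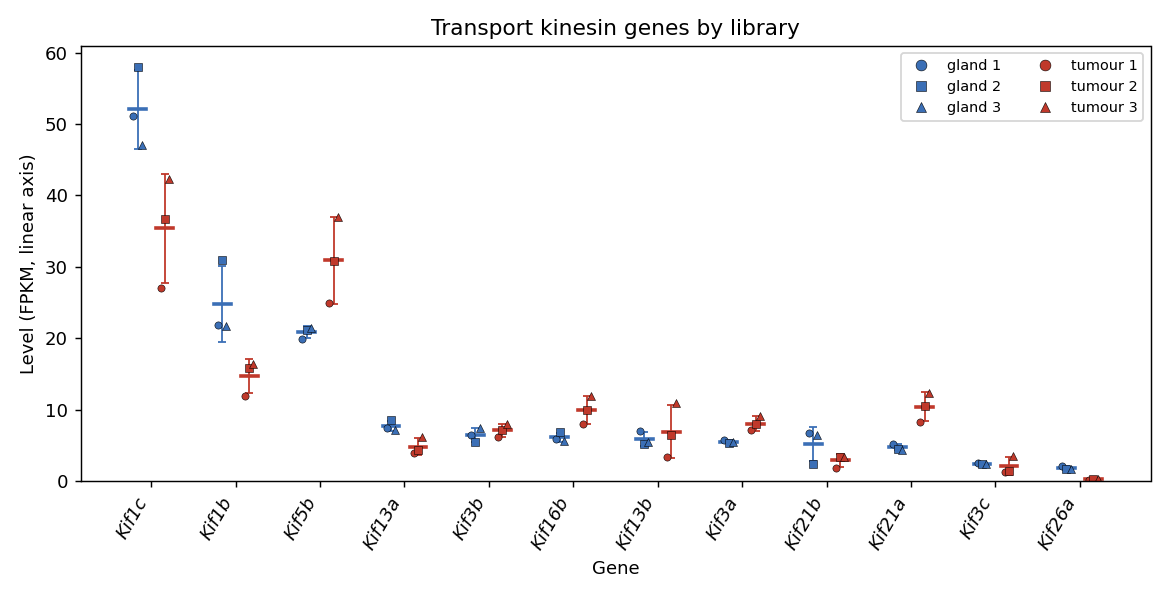
Levels of the 12 tested transport kinesins in FPKM on a linear axis; each symbol is 1 library, lines are means and error bars are SDs of 3 libraries. Kif1c, Kif1b and Kif5b have the highest levels; Kif1c and Kif1b are lower in the tumours and Kif5b is higher.

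The tumours did not have transport kinesins in equal measure. Tumour 1 had the lowest tumour value of all 12 tested transport kinesins and tumour 3 the highest of 11, Kif26a being highest in tumour 2. Over all tested genes tumour 1 was lowest for 44.1% and tumour 3 highest for 40.7%. Among the 13 mitotic kinesins the counts were 6 and 4. With median-of-ratios scaling tumour 1 was still lowest for 12 transport kinesins and tumour 3 highest for 10, against 35.8% and 37.6% of all genes. With each library brought to a common sum tumour 1 was lowest for 12 transport and also 12 mitotic kinesins, against 60.8% of all genes. Tumour 1 had the largest FPKM sum and tumour 3 the smallest. Tumour 3 also had the lowest sums of adipocyte, fibroblast, endothelial, myoepithelial, macrophage and lymph node genes of the 3 tumours. It had the highest sums of the other marker lists: nerve, neuron, luminal, skeletal muscle and multiciliated cell genes. The Schwann cell and nerve genes summed to 149, 181 and 258 FPKM in tumours 1 to 3. The part of these in the order of the tumours was not tested.

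**Figure D5:**
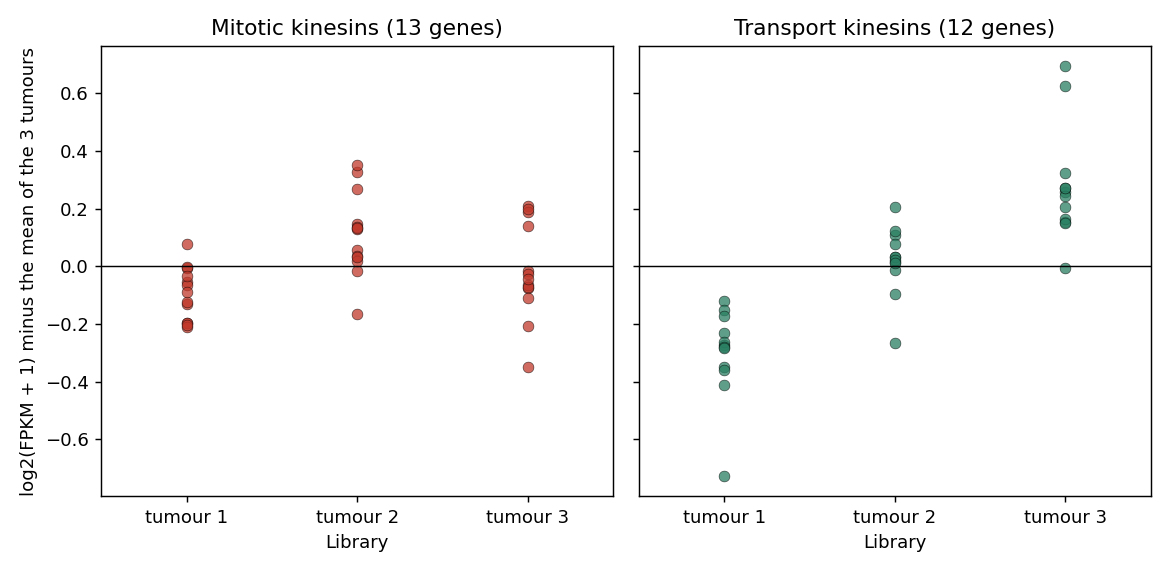
Each point is 1 gene in 1 tumour, as log2(FPKM + 1) minus the mean of that gene over the 3 tumours, for 13 mitotic and 12 transport kinesins. The transport kinesins lie below 0 in tumour 1, and 11 of the 12 are highest in tumour 3.

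The ciliary kinesins had low levels throughout. Kif7, the ciliary regulator of Gli factors in Hedgehog signalling, measured 1.97, 0.887 and 1.15 FPKM in the glands and 0, 0.217 and 0.0692 FPKM in the tumours, which do not overlap. Kif9 lay the other way, at 0.107, 0.249 and 0.287 FPKM in the glands and 0.456, 0.995 and 0.559 FPKM in the tumours. With no minimum, Kif7 was lower (-1.07, SE 0.19, adjusted p = 0.00568) and Kif9 higher (0.45, SE 0.14, adjusted p = 0.0469). Kif7 shares 877 exonic bases with 9330171B17Rik on the other strand, so that its level is uncertain. Kif19a, which limits the length of motile cilia, overlapped at 0.602 to 0.692 FPKM and 0.274 to 0.720 FPKM, and Kif6, Kif17 and Kif27 did not exceed 0.266 FPKM in any library. The 6 genes of multiciliated cells summed to 1.46 to 1.78 FPKM in the glands and 1.83 to 4.07 in the tumours, with Mcidas and Dnah5 at 0 in all 6 libraries.

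Genes that work with the ciliary and transport kinesins mostly did not pass. Of 17 tested genes of intraflagellar transport and its dynein, 1 was higher, 3 were lower and 13 did not pass, beside 45.1% of all genes passing. Dync2li1, a chain of the return motor of cilia, fell by 1.16 (SE 0.30), Ift172 by 0.76 (SE 0.23) and Ift57 by 0.69 (SE 0.18), while Ift22 rose by 0.47 (SE 0.12). These calls were lost in 5, 7, 6 and 6 of 13 alternatives in that order. Ift20 (0.41, adjusted p = 0.161) and Ift43 (0.13, adjusted p = 0.3004) did not pass. Of 8 Hedgehog genes 3 reached the minimum level, the receptor genes Ptch1 (-0.34, adjusted p = 0.437) and Smo (-0.82, adjusted p = 0.0506) and the inhibitor Sufu (0.21, adjusted p = 0.390). Smo stood at 21.4 ± 1.496 and 12.4 ± 5.85 FPKM (SD, n = 3 each).

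Of 14 tested light chains, adaptors and other subunits of kinesins, 3 were higher, 2 lower and 9 did not pass, counts near or under the 21.9% higher and 23.1% lower of all tested genes. The kinesin-1 light chains Klc3 (0.71, SE 0.13) and Klc4 (0.52, SE 0.12) rose, and Fez2, an adaptor of kinesin-1, fell by 1.22 (SE 0.14). Fez1, the relative of Fez2 best known from neurons, was under the minimum mean, at 1.26, 1.07 and 1.38 FPKM in the glands and listed at 0 in all tumours, and with no minimum it was lower (adjusted p = 0.000292). The light chain Klc1, at 22.9 ± 0.762 and 22.7 ± 4.14 FPKM, and the mitochondrial adaptor Trak1 (-0.37, adjusted p = 0.0969) did not pass. Kifc2, a motor that walks to minus ends, fell by 0.88 (SE 0.19). Kifc3, the other gene of this list that rose, had the largest rise in it (1.14, SE 0.30, adjusted p = 0.0201). It measured 9.31, 8.05 and 9.71 FPKM in the glands and 14.7, 17.9 and 35.5 FPKM in the tumours. Kifc3 was not followed through the alternatives. With gland 2 as the only gland Klc3, Klc4 and Kifc2 no longer passed, Klc4 also failed with a common sum, and Kifc2 also failed under quantile normalization.

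Cytoplasmic dynein, the motor of the opposite direction, and dynactin had 5 of 16 tested genes higher, 0 lower and 11 not passing. Their median log2 difference was 0.27. Of all tested genes 21.9% were higher and 23.1% lower, so that the count of higher genes is near the background and that of lower genes under it. The named ones that rose were Dync1li1 (0.43, SE 0.10), Actr1a (0.43, SE 0.10), Dctn2 (0.37, SE 0.10) and Dync1i2 (0.38, SE 0.10), calls lost in 4, 4, 5 and 7 of 13 alternatives. The light chains Dynlrb1 (0.21, adjusted p = 0.188) and Dynll1 (0.66, adjusted p = 0.0627) did not pass. Tubulins, the track itself, had 9 of 13 tested genes higher, 1 lower and 3 not passing, with a median log2 difference of 0.56, beside 21.9% higher and 23.1% lower of all tested genes. Tubb2b rose from 21.5 ± 1.497 to 62.4 ± 10.5 FPKM (1.48, SE 0.14), Tubb2a by 1.09 (SE 0.12) and Tubb4b by 1.03 (SE 0.10). Tubb4a, a brain isotype, fell by 1.71 (SE 0.19) from 2.55 ± 0.304 to 0.0893 ± 0.155 FPKM, and it met the minimum level through the glands. Tuba1a (-0.05, adjusted p = 0.789) and Tuba8 (-1.01, adjusted p = 0.160) did not pass.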

How the data were processed

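The deposited table gives 1 value per symbol and library. Per the submitters' processing notes, HISAT2, StringTie and mm10 were used, with no versions or roles; read length, strandedness and annotation were not given in the sources used here. Deposited values were taken as FPKM made by the authors, since the header names no unit and the values are not whole and sum to a different total in each library. The tumour and gland groups (n = 3 each) were compared with limma 3.58.1 in R 4.3.3 on log2(FPKM + 1), with a mean-variance trend, a minimum mean of 1 FPKM, 2-sided tests, Benjamini-Hochberg adjustment over all 13364 genes and a threshold of 0.05. FPKM carry no counts, so counting error did not enter. Steps between values under 0.3 FPKM gave no dependable relative depth: 20 of 328 pairs (gland 3) to 53 of 556 (tumour 2) lay on a step. All 40 symbols matched 1 gene of GENCODE M21 (GRCm38, the build also called mm10).

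All kinesin genes are named, and of each partner list the passing genes of smallest p (at most 4) and the non-passing genes of highest mean (at most 2); further genes were chosen after their values were seen. The members, lists and roles were chosen with earlier results of these data known. Same-numbered libraries had correlations of their deviations of -0.05, -0.12 and -0.12 across genes, which are not independent replicates, so numbers were not used as pairs. Alternatives were a pseudocount of 0.1, no minimum level, median-of-ratios scaling, quantile normalization, leaving out each library, and a block for the replicate number; a common sum and a fit without glands 1 and 3 were added after seeing the data. The gene test was checked on simulated data.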

Additional observations from a re-analysis of the deposited data

How the results depend on the processing

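The 13 alternatives moved the mitotic calls little and the transport calls much. The count of mitotic kinesins called, 11, lay between 10 and 12 in 12 alternatives and was 8 without glands 1 and 3, within 1.5 times. The count of transport kinesins called fell from 8 (4 higher, 4 lower) to 4 with the replicate block (2 higher, 2 lower), to 4 with a common sum (1 higher, 3 lower) and to 1 without glands 1 and 3 (0 higher, 1 lower). With 1 library left out it ranged from 3 to 9, with 1 to 4 higher and 2 to 5 lower. Over all kinesin genes the count fell from 19 (15 higher, 4 lower) to 9 without glands 1 and 3 (8 higher, 1 lower), the lower calls went to 2 with the replicate block, and with 1 library left out the total ranged from 13 to 21, 11 to 15 higher and 2 to 6 lower. With no minimum level 2 ciliary kinesins were called, 1 higher and 1 lower, against 0 with none tested. Of all genes 6023 passed (2933 higher, 3090 lower), 2052 without glands 1 and 3 (790 higher, 1262 lower), where fewer samples entered, and 4307 to 6371 with 1 library left out (2049 to 3130 higher, 2258 to 3241 lower). Otherwise the cause was not tested.

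Quantile normalization moved the median of all genes to 0.11. Among genes that did not pass, the sign turned for Kif2a (0.055) and Kif3c (0.22) under quantile normalization, and without glands 1 and 3 for Kif2a (0.031), Kif21b (0.17), Numa1 (0.16) and Klc1 (0.025). With 1 library left out the log2 difference ranged from -0.24 (tumour 3 left out) to 0.47 (tumour 1) for Kif13b, from -0.14 (tumour 3) to 0.044 (tumour 2) for Kif2a, which was 0.027 without gland 3, from -0.11 (tumour 3) to 0.13 (tumour 1) for Klc1, and from -0.17 (tumour 1) to 0.074 (tumour 3) for Tuba1a. Nothing in the labels ties a gland to a tumour as a pair: the replicate block lowered the count over all genes to 4728, and the calls of Kif13a, Kif16b, Kif1c and Kif3a were lost in it. Depth in reads was not given, so levels well under 1 FPKM, such as those of Kif26b, Kif7 and Kif9, are of unknown counting error.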
